A study of Mus musculus with 4 samples.

Results

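The genes described here encode the nuclear-encoded parts of the mitochondrial respiratory chain and ATP synthase. They were taken by symbol from a microarray study of RAW264.7 cells, a mouse macrophage line that forms osteoclasts when RANKL and M-CSF are added. Symbols starting with Nduf, Uqcr, Cox4 to Cox8 or Atp5 were included, with Sdha to Sdhd, Cyc1 and Cycs, and each gene was read on its probe set of highest mean. This gave 91 of the 19938 genes on the array. Of these, 82 are structural subunits of complexes I to V, including 8 isoforms that belong to other tissues or states. The other members are 7 complex I assembly factors named Ndufaf, the supercomplex factor Cox7a2l and cytochrome c (Cycs). Ndufa4, named for complex I but a part of complex IV, was counted with complex IV. Genes whose only probe sets carry several symbols are not analysed here.

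The cells carried a control vector or a vector expressing miR-155, and RNA was extracted either before stimulation or after 72 h with RANKL and M-CSF at 20 ng/ml. Whether this is the dose of each cytokine is not stated in the sources used. No array is of cells cultured for 72 h without RANKL and M-CSF. A difference by stimulation below therefore joins the cytokines with 72 h of culture, and these cannot be told apart. The series text calls the control cells wild-type, whereas the sample descriptions give them a control vector, and no source used here says how many clones or transfections the cells came from. Each of the 4 groups is 1 array of total RNA from cultured cells of this line. There is therefore no replicate error, no p-value was computed, and precision is limited by how few arrays there are. Values are log2 expression on the RMA scale, and a difference of 1 is 2-fold. Where 4 levels are given in a row below, they are in the order unstimulated control, stimulated control, unstimulated miR-155 and stimulated miR-155.

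Oxidative phosphorylation passes electrons from NADH (complex I) and succinate (complex II) through coenzyme Q to complex III, then by cytochrome c to complex IV, where oxygen is reduced. Complexes I, III and IV pump protons, and complex V, the ATP synthase, uses the gradient to make ATP. Osteoclasts are rich in mitochondria, and their formation is known to go along with mitochondrial biogenesis.

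Cell identity was checked on marker genes. All 7 macrophage markers lay above the floor of 4.25 on every array; this floor is the 95th percentile of 1212 olfactory and vomeronasal receptor probe sets. Osteoclast markers had a median difference by stimulation of 6.14 in control and 4.15 in miR-155 cells, whereas macrophage markers had one of -2.06 and -0.27. Of 4 T cell markers, Cd3d, Cd3g and Cd2 lay below the floor on every array and Cd3e, with a highest level of 4.84, above it. Of 3 B cell markers, Cd79a and Ms4a1 lay below the floor on every array and Pax5, with levels of 4.34 to 4.65, above it. Of 6 fibroblast and osteoblast markers, 5 lay above the floor with a highest level of 5.79. The array of stimulated control cells was the least like the others over the 13561 genes above the floor, with Pearson correlations of 0.908 to 0.937 with them against 0.982 to 0.989 among the remaining 3. In bulk RNA, a higher level per cell and a larger share of cells with a high level cannot be told apart, and the part that the shift in markers has in the results below was not tested. Between stimulated and unstimulated control arrays 95% of the receptor probe sets differed by less than 0.48, and between the miR-155 arrays by less than 0.41. These values serve as a noise reference for dim probe sets and are no replicate error.

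With the control vector, genes of all 5 complexes stood higher after RANKL and M-CSF. Of the 91 genes, 89 lay above the floor on at least 1 array. Of these, 84 had a higher level with stimulation, as did 6480 of the 13561 genes above the floor. Past 1.5-fold were 50 genes higher and 1 lower, against 12.3% higher and 15.1% lower among all genes above the floor. The median difference was 0.62, or 1.53-fold, against -0.02 for all genes. Over the 74 subunits above the floor that are not isoforms of other tissues, the median was 0.69, every one was above 0, and 57 were higher by more than the noise reference, as were 2079 of the 13561 genes above the floor. Most of these genes are bright: 66 members had a mean over 8, of which 46 were past 1.5-fold higher, beside 17.1% of all 3393 genes with such a mean; 0 were past it lower, beside 20.0%. The 2 genes below the floor on every array were Cox7b2 and Cox8b.

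**Figure D1:**
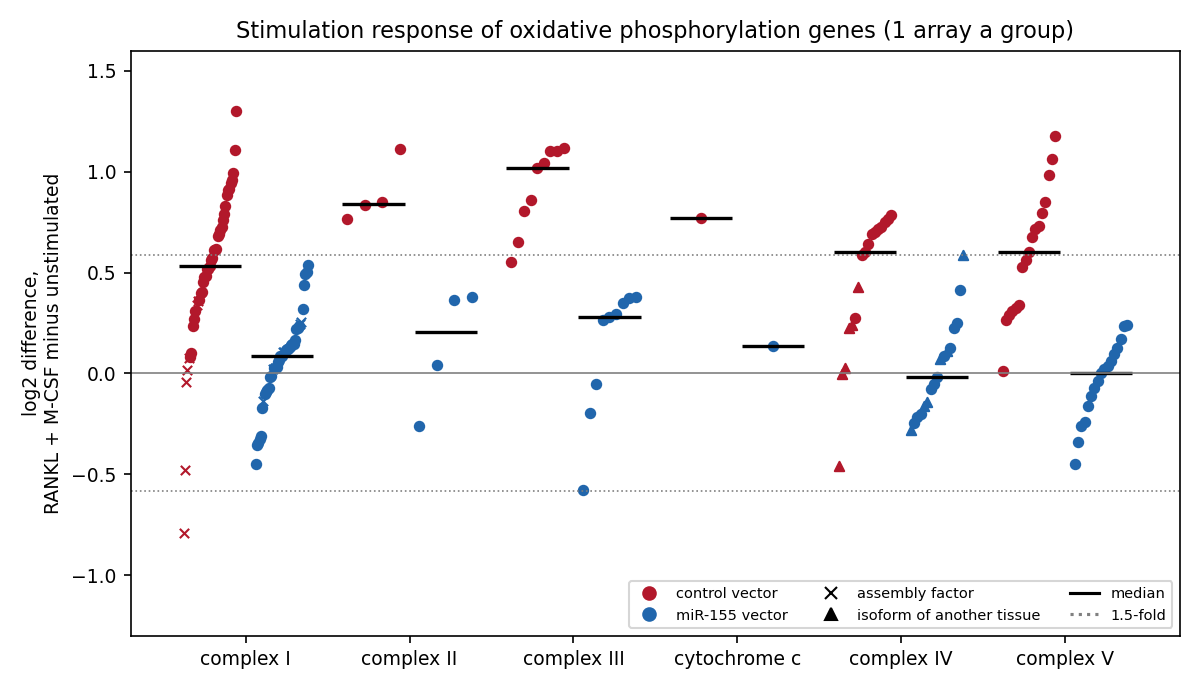
Each point is 1 gene above the floor, and the vertical axis is its log2 difference between the stimulated and unstimulated array of the control vector (red) or miR-155 vector (blue). Crosses are assembly factors, triangles isoforms of other tissues, bars medians and dotted lines 1.5-fold; the red medians are highest for complex III (1.02) and complex II (0.84), and the blue medians lie between -0.02 and 0.28.

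Complex I, the NADH dehydrogenase, is the largest complex, and its 34 subunits had a median difference of 0.61, all above 0 and 18 past 1.5-fold. Ndufv1, the flavin-binding subunit that takes electrons from NADH, stood at 9.51, 10.42, 9.37 and 9.69. Ndufs1, the largest iron-sulfur subunit, stood at 9.53, 10.09, 9.24 and 9.68. Ndufs8, another iron-sulfur core subunit, stood at 9.39, 10.39, 9.43 and 9.97. In all 3 genes the stimulated control array was highest, with the stimulated miR-155 array next. The 6 core subunits together ranged from 0.53 to 0.99 in control cells.

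The accessory subunits of complex I surround the catalytic core. The largest difference of any member was in Ndufb9, a membrane-arm subunit, with levels of 7.99, 9.29, 8.43 and 8.58 and a 2.47-fold higher level in stimulated control cells. Ndufb6, also of the membrane arm, stood at 9.40, 10.51, 10.05 and 10.28, so that both miR-155 arrays lay closer to the stimulated than to the unstimulated control array. The 28 accessory subunits had a median of 0.59 and a range of 0.08 to 1.30, and 14 of them were past 1.5-fold higher.

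The 7 Ndufaf genes, which encode proteins that help build complex I without being part of it, had other values. Their median was 0.02 in control cells, near the -0.02 of all genes. None was past 1.5-fold higher, against 12.3% of all genes. Ndufaf7 was past 1.5-fold lower, 1 of 7 (14.3%) against 15.1% of all genes. In a list of 7 these counts are near those shares. Ndufaf7, an arginine methyltransferase, stood at 6.82, 6.03, 6.74 and 6.60 and was 1.73-fold lower. Ndufaf4 stood at 7.59, 7.11, 7.27 and 7.29. The remaining Ndufaf genes differed by -0.04 to 0.36, and the difference between assembly factors and subunits was not tested.

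All 4 genes of complex II, succinate dehydrogenase, which also belongs to the citric acid cycle, were past 1.5-fold higher in stimulated control cells. Sdha, the flavoprotein that oxidizes succinate, stood at 9.58, 10.41, 9.58 and 9.95. Sdhb, the iron-sulfur subunit, stood at 9.18, 10.29, 9.34 and 9.71 and had the largest difference, 1.11. Sdhc and Sdhd anchor the complex in the membrane. Sdhc stood at 9.79, 10.64, 10.09 and 9.83, and Sdhd at 10.04, 10.80, 10.58 and 10.62. The unstimulated control array was the lowest for all 4 genes and the stimulated control array the highest.

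Complex III, the cytochrome bc1 complex, had the highest median of the complexes, 1.02 or 2.03-fold, with 8 of 9 genes past 1.5-fold higher. Uqcrfs1, the Rieske iron-sulfur protein, stood at 7.77, 8.87, 7.76 and 8.11, and Cyc1, cytochrome c1, at 10.04, 11.08, 10.19 and 10.47. Both carry electrons within the complex, and both were more than 2-fold higher in stimulated control cells, at 2.14-fold and 2.06-fold. Uqcrc1, the core protein 1, stood at 10.61, 11.72, 10.92 and 11.29, and the small subunit Uqcr10 at 8.48, 9.60, 8.66 and 8.96. The lowest differences were in the hinge protein Uqcrh (0.55; 10.49, 11.04, 10.34 and 10.29) and in Uqcrb (0.65; 9.39, 10.05, 9.29 and 9.56). Cycs, the mobile carrier from complex III to IV, stood at 9.76, 10.53, 10.05 and 10.19, a 1.71-fold higher level.

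Complex IV, cytochrome c oxidase, has 10 ubiquitous subunits here, whose differences ranged from 0.27 to 0.77 with a median of 0.70. Of these, 9 were past 1.5-fold higher. Cox4i1, the ubiquitous form of the subunit tied to regulation by ATP, stood at 10.12, 10.82, 10.24 and 10.33. Cox6c had the largest difference of these (10.09, 10.85, 10.18 and 10.10), and Cox5a stood at 9.09, 9.70, 9.71 and 9.50. In Cox5a the unstimulated miR-155 array was as high as the stimulated control array. Cox7b was the subunit short of 1.5-fold, at 9.43, 9.71, 9.04 and 9.46. Cox7a2l, which links complexes III and IV, stood at 9.23, 10.01, 9.14 and 9.39, and its other probe set gave a larger difference, 1.21 against 0.78.

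Several complex IV subunits have isoforms of other tissues, and these had other values. The 6 above the floor had a median of 0.13 in control cells. None was past 1.5-fold, against 12.3% higher and 15.1% lower of all genes, which in a list of 6 is near those shares. All 6 differences lay within the noise reference of 0.48. Cox4i2, the lung isoform, stood at 5.25, 4.80, 4.91 and 4.98. The heart and skeletal muscle isoforms Cox6a2 (6.02, 6.04, 5.60 and 5.46) and Cox7a1 (6.44, 6.87, 6.05 and 6.64) were above the floor on all arrays. So were 4 to 6 of 6 muscle markers, depending on the array, at up to 6.34. All arrays are of cultured cells of this macrophage line. A level above the floor therefore does not by itself show that an isoform is expressed, and what these levels reflect was not tested. Cox8b, another muscle isoform, lay below it at 3.93, 3.74, 4.17 and 4.10. The testis isoforms were near or under the floor: Cox6b2 at 4.14, 4.37, 4.32 and 4.16, Cox8c at 4.65, 4.64, 4.83 and 4.55, and Cox7b2 at 3.46, 3.72, 3.52 and 3.41. Ndufa4l2, the hypoxia-induced relative of Ndufa4, stood at 4.50, 4.74, 4.52 and 4.63.

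Their ubiquitous partners were well above the floor. Cox6a1 stood at 9.74, 10.44, 9.88 and 9.83, Cox6b1 at 10.34, 10.98, 10.50 and 10.26, and Cox7a2 at 9.05, 9.64, 9.27 and 9.39. Cox8a stood at 9.60, 10.32, 9.97 and 9.77, and Ndufa4 at 11.06, 11.79, 11.01 and 11.24. In each of these 5 genes the stimulated control array was the highest. The plot of isoform genes shows these values.

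**Figure D2:**
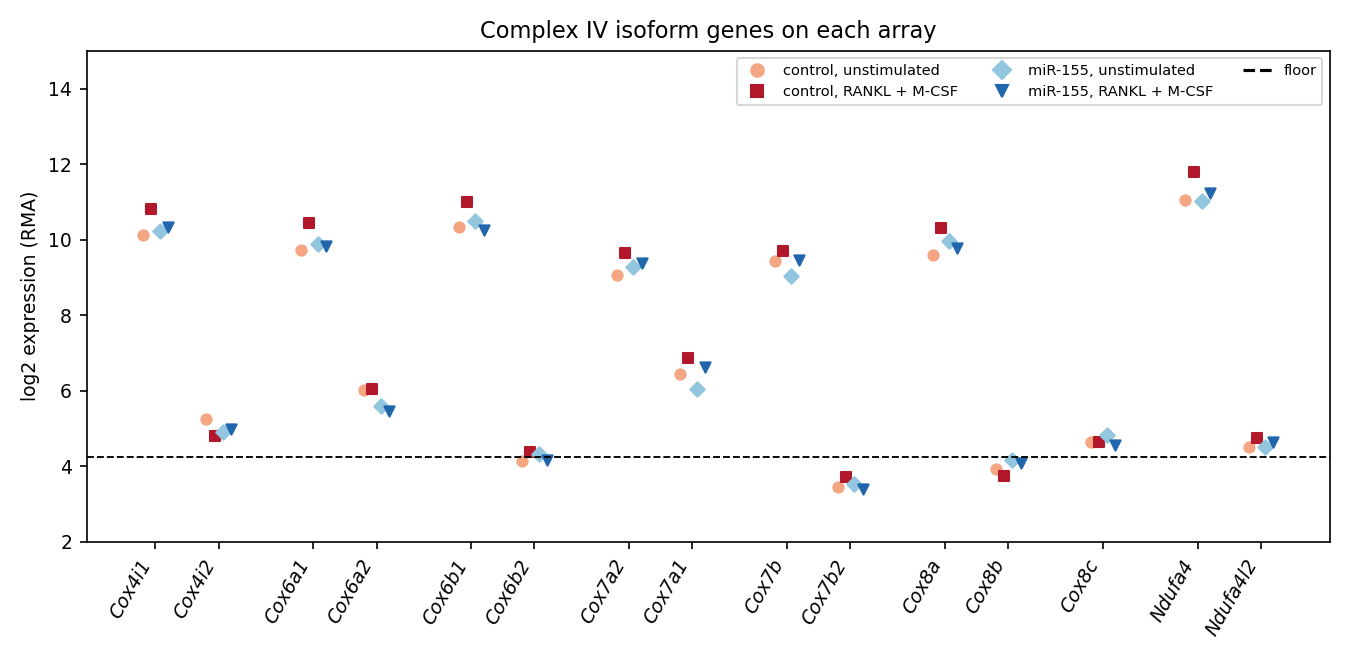
Points are the log2 expression of complex IV isoform genes on the 4 arrays, each ubiquitous gene followed by its isoform of another tissue or state; the dashed line is the floor of 4.25. Cox7b2 and Cox8b lie below the floor on every array, and the red squares (stimulated control) are the highest of the 4 for Cox4i1, Cox6a1, Cox6b1, Cox7a2, Cox7b, Cox8a and Ndufa4.

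Complex V combines the F1 head, which makes ATP, with the membrane part Fo and its stalks. All 17 genes were higher in stimulated control cells, with a median of 0.60, and 9 were past 1.5-fold. The main F1 genes were among the smallest differences. Atp5b, the catalytic beta subunit, stood at 12.63, 12.97, 12.68 and 12.74, Atp5a1, the alpha subunit, at 12.28, 12.55, 12.40 and 12.44, and Atp5c1, the central stalk, at 11.76, 12.05, 11.75 and 11.84. Atp5e, the small epsilon subunit of the same head, stood at 7.91, 8.76, 8.55 and 8.29. Of the 5 F1 genes, Atp5e and the delta subunit gene Atp5d (0.68) were past 1.5-fold higher, 2 of 5 against 12.3% of all genes.

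In the Fo part, Atp5l, the g subunit, stood at 9.06, 10.23, 9.92 and 9.92, and Atp5md, a small membrane subunit, at 10.08, 11.14, 10.22 and 10.14, both more than 2-fold higher in stimulated control cells. Atp5j, the F6 subunit of the peripheral stalk, was the exception at 10.81, 10.82, 10.78 and 10.44. The c-ring, which turns as protons pass, is encoded by 3 genes for the same mature protein. Atp5g1 stood at 9.61, 10.33, 9.93 and 10.05, Atp5g2 at 11.57, 11.88, 11.82 and 11.66, and Atp5g3 at 10.70, 11.30, 11.01 and 10.97. Their differences were 0.72, 0.31 and 0.60. The order of the complexes by median was III, II, IV (ubiquitous), I (subunits) and V, and their ranges overlapped.

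Many of these genes have processed copies elsewhere in the genome, and 18 members had more than 1 probe set. All 18 had the same sign of the control difference over their probe sets above the floor, with a median range between probe sets of 0.105 and a largest range of 0.43 in Cox7a2l. For example the 6 probe sets of Atp5l gave differences of 1.08 or more. Such probe sets can read the same transcripts, so their likeness is no replicate.

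Since most subunit genes stood higher together in control cells, their promoters were read for letters known as binding motifs of factors tied to respiratory genes. RefSeq promoters (GRCm38.p6) were found for 74 of the 91 genes, 5 of them with 2 starts, and the 250 bases before the start were searched on both strands. The NRF1 core GCATGCGC stood in 10 of 79 member promoters (12.7%) against 2.26% of all 32851 promoters, and CCGGAAG, the ETS-family motif bound by GABPA, in 13 (16.5%) against 6.91%. TGACGTCA, the CREB motif, stood in 5 (6.33%) against 1.55%, CAAGGTCA, the motif of the receptor encoded by Esrra, in 3 (3.80%) against 1.33%, and AAGATGGC, the YY1 motif, in 1 (1.27%) against 1.56%. The median GC content was 57.2% in member promoters and 52.4% in all, and its part in these shares was not tested. The 32851 promoters were not limited to genes above the floor. Whether the shares are particular to respiratory genes among genes above the floor was not tested. The following promoters are shown because each belongs to the gene with the largest control difference in its complex among those with a single start and a match; matched letters are in capitals, and the sequences run 5′ to 3′ to the base before the start.
Ndufb6 (chr4:40279422-40279671, minus strand): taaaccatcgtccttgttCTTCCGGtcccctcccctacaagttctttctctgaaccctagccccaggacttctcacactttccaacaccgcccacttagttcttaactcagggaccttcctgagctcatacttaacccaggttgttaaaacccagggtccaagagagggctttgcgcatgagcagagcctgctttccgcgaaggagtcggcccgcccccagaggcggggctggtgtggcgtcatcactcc
Sdhb (chr4:140961021-140961270, plus strand): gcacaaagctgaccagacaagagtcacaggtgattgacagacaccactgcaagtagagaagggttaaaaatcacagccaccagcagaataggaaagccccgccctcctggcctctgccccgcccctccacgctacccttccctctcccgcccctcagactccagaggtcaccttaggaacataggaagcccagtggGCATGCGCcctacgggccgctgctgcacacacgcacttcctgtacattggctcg
Uqcrfs1 (chr13:30545317-30545566, minus strand): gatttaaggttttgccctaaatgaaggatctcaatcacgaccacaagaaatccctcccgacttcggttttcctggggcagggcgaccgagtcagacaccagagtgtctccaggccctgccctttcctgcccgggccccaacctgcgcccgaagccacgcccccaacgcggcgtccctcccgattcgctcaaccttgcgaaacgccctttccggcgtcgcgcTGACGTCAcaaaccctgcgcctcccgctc
Cox6a1 (chr5:115348959-115349208, minus strand): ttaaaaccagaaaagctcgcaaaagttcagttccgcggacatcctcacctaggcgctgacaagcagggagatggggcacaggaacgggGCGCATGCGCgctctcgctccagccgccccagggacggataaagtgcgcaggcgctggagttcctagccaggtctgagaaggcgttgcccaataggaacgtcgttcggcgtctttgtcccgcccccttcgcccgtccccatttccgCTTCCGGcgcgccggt
Atp5l (chr9:44920743-44920992, minus strand): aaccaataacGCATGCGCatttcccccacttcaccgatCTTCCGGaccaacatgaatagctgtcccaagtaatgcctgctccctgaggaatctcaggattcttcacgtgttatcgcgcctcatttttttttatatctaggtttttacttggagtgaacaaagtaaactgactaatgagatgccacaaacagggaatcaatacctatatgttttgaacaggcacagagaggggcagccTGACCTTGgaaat
Cycs (chr6:50566570-50566819, minus strand): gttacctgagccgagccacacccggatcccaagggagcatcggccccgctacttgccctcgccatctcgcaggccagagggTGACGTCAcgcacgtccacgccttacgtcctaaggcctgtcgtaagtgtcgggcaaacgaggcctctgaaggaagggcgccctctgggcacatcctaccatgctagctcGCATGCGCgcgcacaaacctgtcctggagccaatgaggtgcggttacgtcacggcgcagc
The match lay 232 bases before the start in Ndufb6 (CTTCCGG, the ETS motif on the other strand), 54 in Sdhb (NRF1) and 29 in Uqcrfs1 (CREB). In Cox6a1 the capitals of the upstream stretch are the NRF1 core on both strands, overlapping, and those nearer the start, 16 bases before it, the ETS motif. Atp5l held the NRF1 core at 240, the ETS motif at 212 and the Esrra motif at 13 bases, and Cycs the CREB motif at 169 and the NRF1 core at 60. A match describes these letters and is not evidence of binding.

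In miR-155 cells the same stimulation came with small differences of mixed sign. The median over the 89 genes was 0.07, against -0.03 for all genes, with 55 genes above 0 and 34 below. Of the 13561 genes above the floor, 6108 were above 0 and 7450 below. The members' median lay within the noise reference of 0.41. Past that reference were 6 members higher and 3 lower, as were 967 and 1243 of the 13561 genes. Of the 89 genes, 1 was past 1.5-fold higher and 0 lower, against 3.43% and 3.73% of all genes. Of the 66 members with a mean over 8, 0 were past it in either direction, against 4.01% higher and 5.19% lower of all genes with such a mean. The gene past 1.5-fold was the muscle isoform Cox7a1 at 0.59, from 6.05 to 6.64. Complex III had a median of 0.28, complex II 0.20, the subunits of complex I 0.09, complex V 0.00 and the ubiquitous subunits of complex IV -0.04.

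Of the 12 catalytic core genes of complexes I to III, 11 were above 0, with a median of 0.30. Over all genes above the floor, 6108 of 13561 were above 0. The core median lay within the noise reference of 0.41, and 2 of the 12 genes were past it. Ndufs8 differed by 0.54, Ndufs1 by 0.44, Sdhb by 0.38, Sdha by 0.37 and Uqcrfs1 by 0.35, and Sdhc (-0.26) was the exception. The accessory subunit Ndufs4, needed for the last steps of complex I assembly, stood at 8.19, 8.95, 8.29 and 8.79, a difference of 0.50. Among the 35 accessory subunits of complexes I and III, 20 were above 0 and the median was 0.07. The difference between core and accessory genes was not tested.

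Several small subunits were lower with stimulation in miR-155 cells. Uqcr11, a small complex III subunit, stood at 7.88, 8.90, 8.33 and 7.75, a difference of -0.58. Ndufc1, of complex I, stood at 8.67, 9.62, 9.23 and 8.78, and Atp5k, the e subunit of complex V, at 8.90, 9.70, 9.12 and 8.67; both differed by -0.45. In each of the 3 genes the stimulated control array was the highest, and the unstimulated miR-155 array came next.

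The responses of the 2 vectors share no array. Of the 50 genes past 1.5-fold higher in control cells, 32 were above 0 in miR-155 cells and 0 were past 1.5-fold. For all genes, 1260 of the 1673 past 1.5-fold higher in control cells were above 0 in miR-155 cells, and 313 were past 1.5-fold. The response was larger in control cells for 81 of 89 members (91.0%), against 52.8% of all genes. Over the 89 genes the 2 responses had a Pearson r of 0.17, against 0.47 over all genes above the floor, which describes these genes on 4 arrays and not independent points. The median difference of the responses was -0.53, with 42 genes past 1.5-fold smaller and 1 larger in miR-155 cells, against 13.9% and 14.5% of all genes. For means over 8 the counts were 39 and 0, against 17.8% and 17.3%. The noise reference of this difference was 0.640, above the 1.5-fold threshold of 0.585 in log2, and the median lay within it. Past that reference 33 genes were smaller and 1 larger, as were 1627 and 1749 of the 13561 genes above the floor. The lowest values were Uqcr11 (-1.60), Ndufc1 (-1.39) and Ndufa1 (-1.26), and the highest Ndufaf7 (0.66), Cox4i2 (0.53) and Ndufaf4 (0.50).

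**Figure D3:**
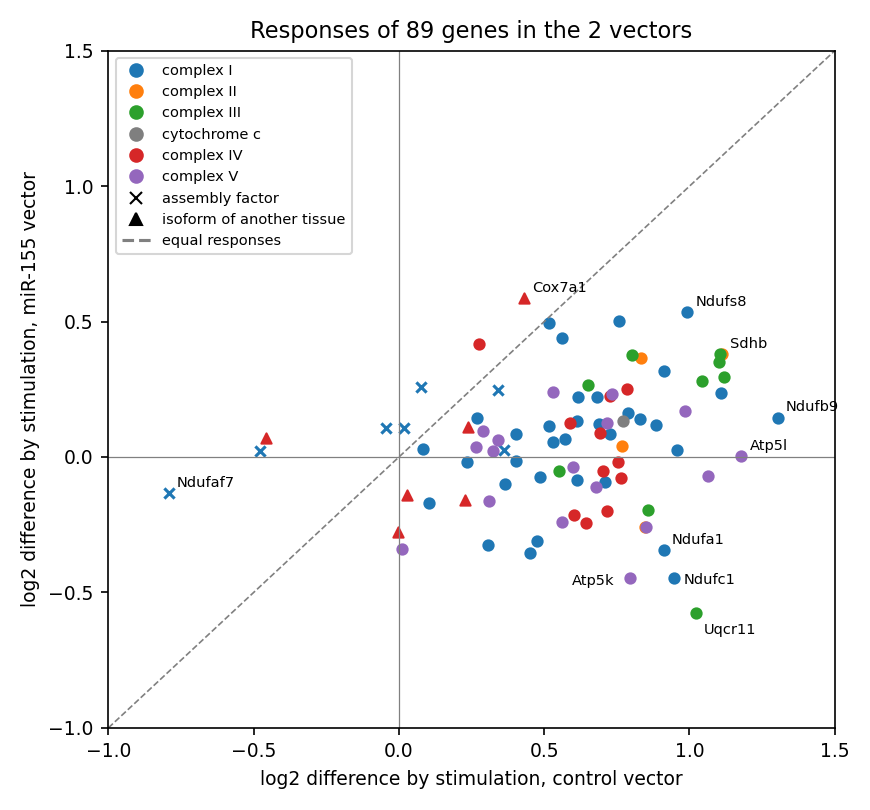
Each point is 1 of the 89 genes above the floor, coloured by complex, with its log2 difference by stimulation in control cells on the horizontal and in miR-155 cells on the vertical axis; the dashed line marks equal responses. For 81 genes the point lies below that line, and Uqcr11, Ndufc1 and Atp5k lie lowest.

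Without stimulation, the subunit genes stood slightly higher in miR-155 than in control cells. The array of unstimulated control cells also enters the control response, so both results depend in part on that array. Of the 89 genes 64 were above 0, as were 6761 of the 13561 genes above the floor. The median difference was 0.14, against -0.00 for all genes. This median lay within the noise reference of 0.37 for this comparison. Past that reference were 11 members higher and 3 lower, as were 719 and 1286 of the 13561 genes above the floor. Past 1.5-fold were 5 genes higher and 0 lower, beside 1.18% and 3.14% of all genes; for means over 8 the counts were 4 and 0, beside 1.03% and 2.89%. They were Atp5l (0.86), Ndufb6 (0.65), Atp5e (0.63), Cox5a (0.62) and Ndufa13 (0.61), the last a complex I subunit also known as GRIM-19. The lowest were the muscle isoforms Cox6a2 (-0.42) and Cox7a1 (-0.39) and Cox7b (-0.39). Cytosolic ribosomal protein genes, a list added after the values were seen, had a median of 0.10 over 55 genes in the same comparison and -0.07 for stimulation in miR-155 cells. Their median was 0.05 for stimulation in control cells, -0.02 for miR-155 with stimulation and -0.09 for the difference of responses.

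With stimulation, the subunit genes stood lower in miR-155 than in control cells. The array of stimulated control cells also enters the control response, so its values follow from that array in part. The median was -0.40, or 1.32-fold lower, against -0.02 for all genes. Of the 89 genes 81 were below 0, as were 7118 of the 13561 genes above the floor. Past 1.5-fold were 24 lower and 0 higher, against 13.6% and 12.3% of all genes; for means over 8 they were 21 and 0, against 18.0% and 16.9%. Ndufa1, a small complex I subunit, had the lowest value: it stood at 8.67, 9.59, 8.68 and 8.33, a 2.38-fold lower level in stimulated miR-155 cells. Uqcr11 was 2.22-fold and Atp5k 2.04-fold lower. By complex the median was -0.64 for III, -0.55 for the ubiquitous subunits of IV, -0.52 for II, -0.38 for V and -0.32 for the subunits of I. With its isoforms of other tissues and Cox7a2l, complex IV had -0.49, and complex I with its assembly factors -0.26.

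The 8 genes above 0 in this comparison were mainly assembly factors. Ndufaf7 (0.57) and Ndufaf3 (0.27) were the highest, Ndufaf3 standing at 6.99, 6.95, 7.12 and 7.22. Ndufaf2 (6.52, 6.54, 6.61 and 6.72), Ndufaf4 and Ndufaf6 were also above 0, with Cox4i2 and the accessory subunits Ndufa8 and Ndufa12.

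Across all 4 arrays, the stimulated control array gave the highest level for 76 of 89 genes (85.4%), against 35.0% of all genes above the floor. This held for all genes of complexes II, III and V, for 14 of 17 of complex IV and for 31 of 41 of complex I. The unstimulated control array gave the lowest level for 56 genes (62.9%), against 18.6% of all genes. The exceptions were spread over the other arrays: 6 genes were highest in unstimulated miR-155 cells (Cox5a, Cox8c, Ndufa12, Ndufa13, Ndufa5 and Ndufb11), 4 in stimulated miR-155 cells and 3 in unstimulated control cells.

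**Figure D4:**
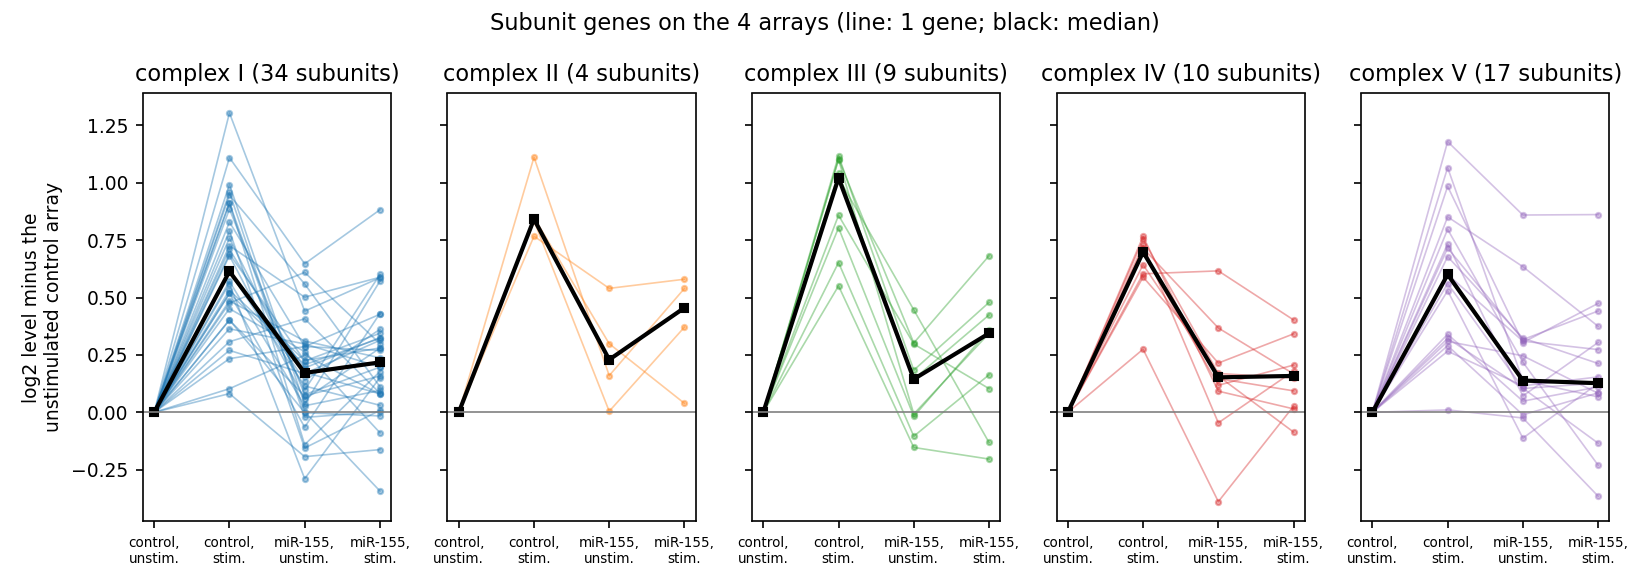
For each complex, thin lines join the log2 levels of 1 subunit gene on the 4 arrays after subtraction of its level on the unstimulated control array, and black squares are medians; assembly factors, isoforms of other tissues and Cox7a2l are left out. The black median is highest on the stimulated control array in all 5 panels.

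Other genes of the pathway were read from lists outside the symbol rule. Assembly factors other than Ndufaf genes had a median control difference of 0.25 over 36 of 41 genes, with 5 past 1.5-fold higher (13.9%) and 0 lower. The share higher is near the 12.3% of all genes, and 15.1% of all genes were past 1.5-fold lower. Cox17, the copper chaperone of complex IV, had the largest, with levels of 7.54, 9.59, 7.58 and 8.39, or 4.13-fold in control and 1.75-fold in miR-155 cells. Cox14 (1.03), Timmdc1 (0.90), Cox15 (0.78) and Uqcc1 (0.72) were the others. Genes of coenzyme Q synthesis, the lipid that carries electrons to complex III, had a median of 0.50 over 12 of 13 genes, with 4 past 1.5-fold higher (33.3%), against 12.3% of all genes, and 0 lower, against 15.1%. Coq8a, an atypical kinase of this pathway, stood at 6.26, 8.41, 5.76 and 7.80, so that its responses in the 2 vectors, 2.15 and 2.04, were close. The other 3 were Coq10a (0.82), Coq5 (0.80) and Coq9 (0.65), which differed by 0.07 to 0.20 in miR-155 cells.

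Carriers that move ATP, ADP and phosphate, with the uncoupling proteins, had a median of 0.38 over 4 genes. The phosphate carrier Slc25a3 was past 1.5-fold (0.59), 1 of 4 genes against 12.3% of all genes. The ADP/ATP carriers Slc25a4 (0.43) and Slc25a5 (0.19) were not, nor was the uncoupling protein gene Ucp3 (0.33). Ucp3 stood at 4.07, 4.39, 4.20 and 3.87, above the floor only on the stimulated control array. It entered the list through the array where it was highest, so the median says little about uncoupling proteins. Protein import and chaperone genes had a median of 0.12 over 22 genes. Past 1.5-fold higher were 3 (Timm17a, Tomm6 and Timm8b), which at 13.6% is near the 12.3% of all genes. Timm9 was past it lower, 1 of 22 (4.55%) against 15.1% of all genes. The subunits encoded by mitochondrial DNA are not analysed here.

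Transcription regulators of mitochondrial genes had a median of -0.24 over 11 genes, with 2 past 1.5-fold higher and 3 lower in control cells, against 12.3% and 15.1% of all genes. In a list of 11 these counts are 1 or 2 genes from those shares. The higher ones were Ppargc1b, a coactivator of mitochondrial biogenesis (7.30, 8.89, 7.08 and 6.91), and its partner receptor Esrra (7.31, 7.93, 7.49 and 7.33). The lower ones were Tfam (6.80, 5.85, 6.99 and 6.72) and Tfb1m (7.12, 6.48, 7.12 and 7.12), which act on mitochondrial DNA and ribosomal RNA, and Nrf1 (7.09, 6.30, 7.01 and 7.07), whose factor binds the NRF1 core named above. In miR-155 cells 0 of the 11 passed 1.5-fold in either direction, where 3.43% higher and 3.73% lower of all genes did. Ppargc1b, Esrra and Tfb2m were highest on the stimulated control array, as were 35.0% of all genes above the floor. Tfam, Tfb1m, Nrf1, Pprc1, Gabpa, Gabpb1 and Yy1 were lowest there, as were 36.2% of all genes above the floor. Any link between these regulators and the subunit genes was not tested.

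**Figure D5:**
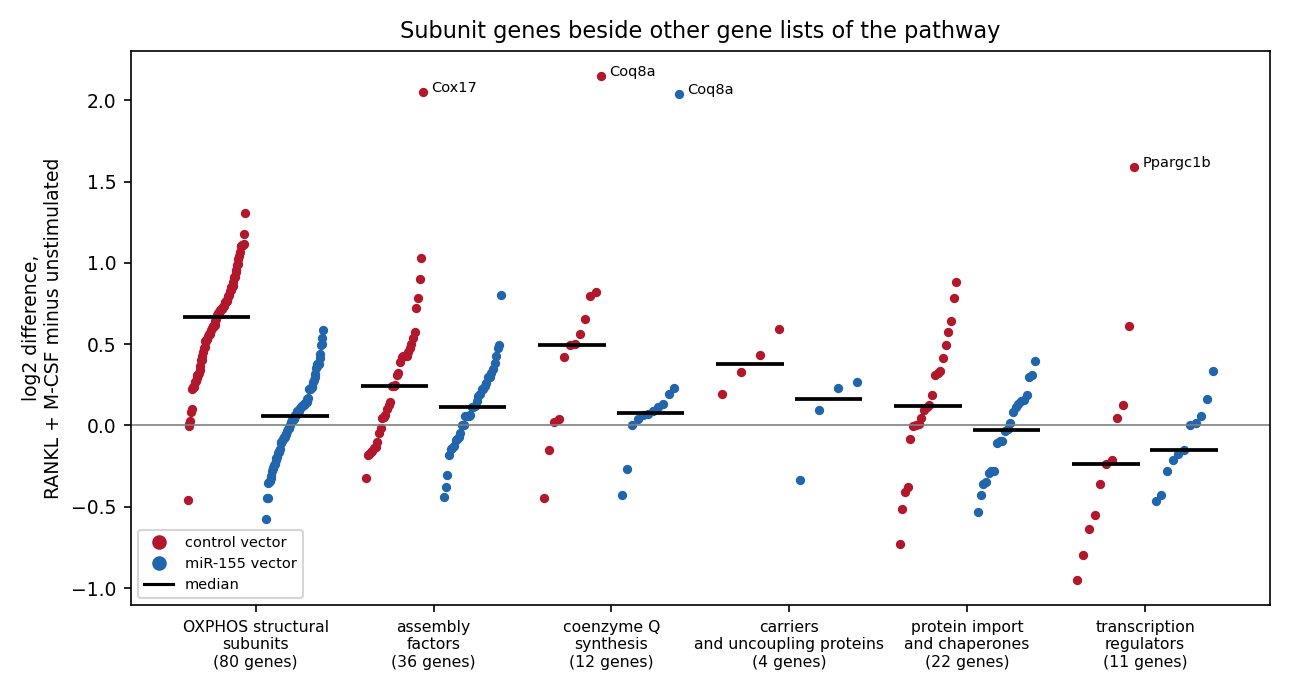
Points are log2 differences by stimulation of single genes above the floor in control (red) and miR-155 cells (blue), and bars are medians, for the 80 structural subunits and 5 other gene lists. The red median of the subunits is 0.67, that of coenzyme Q synthesis 0.50 and that of the transcription regulators -0.24.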

How the data were processed

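Expression was measured on 4 Affymetrix Mouse Gene 1.0 ST arrays, 1 a group. The authors deposited log2 values made by RMA in Partek, per the submitters' processing notes; no source used here gives versions or the build of the probe annotation. RMA sets all arrays to 1 distribution, which hides a change in total RNA per cell; array medians here were 4.58 to 4.62. Of 35557 probe sets, 21789 had 1 gene symbol, 1621 several and 12147 none, and only the first kind was used. All 118 member probe sets had the same symbol in RefSeq's table (GRCm38.p6). Differences of log2 values, counts past 1.5-fold and medians were computed with Python 3.11.15, numpy 2.4.6 and pandas 2.3.3, and the scripts were tested on simulated data. The floor was the 95th percentile of the receptor probe sets. Shares among all genes use genes above the floor, whereas the motif shares use all promoters.

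With 1 array a group no test was possible and none was run. Genes named were a preset group of central subunits, the 2 highest and 2 lowest of each complex for stimulation in control cells, the 3 highest and 3 lowest over all members in the other comparisons, and isoforms with their partners. The members and lists were chosen with earlier results of these data known; the comparison with genes over a mean of 8, the ribosomal protein list and the motifs were added after the values were seen. Alternatives were the scaling, the floor, the probe set of a gene, the members and the fold.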

Additional observations from a re-analysis of the deposited data

Results flagged for a closer look

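In 5 genes the direction of a difference was opposite between vectors or between states, with both differences past the noise reference. For miR-155 against control cells this reference was 0.370 without and 0.473 with stimulation, which Atp5e barely passes. How many of all genes meet the same rule was not counted, so whether 5 is many cannot be said. Each rests on 1 array a group and the difference was not tested. Stimulation came with higher levels in control and lower levels in miR-155 cells for Uqcr11 (1.02 and -0.58, a difference of -1.60), Ndufc1 (0.95 and -0.45, a difference of -1.39) and Atp5k (0.80 and -0.45, a difference of -1.25). miR-155 cells were above control cells without stimulation and below them with it for Uqcr11 (0.45 and -1.15), Ndufc1 (0.56 and -0.83), Ndufb9 (0.44 and -0.72, a difference of -1.16) and Atp5e (0.63 and -0.48, a difference of -1.11). For Uqcr11 and Ndufc1 both views give the same difference, as they use the same 4 arrays. Whether samples stand apart within a group could not be examined with 1 array each.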

How the results depend on the processing

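Of 125 alternatives, 106 left the value within the stated limits (1 receptor SD for a median, 1.5 times for a count), 19 moved it and 0 reversed it. For stimulation in miR-155 cells the SD was 0.20 and the median 0.07. For miR-155 without stimulation they were 0.19 and 0.14. A median of 0 would also lie within these limits, so the tally says little about those medians. The median differences kept within 0.60 to 0.67 (stimulation, control), 0.058 to 0.088 (stimulation, miR-155), 0.12 to 0.15 (miR-155, unstimulated), -0.42 to -0.38 (miR-155, stimulated) and -0.59 to -0.48 (difference of responses). At 2-fold instead of 1.5-fold the counts were 10 higher and 0 lower for stimulation in control cells (5.73% and 6.92% of all genes), 0 and 0 for stimulation in miR-155 cells (1.15% and 0.184%), 0 and 0 for miR-155 without stimulation (0.0664% and 0.546%), 0 and 3 for miR-155 with stimulation (5.60% and 5.55%), and 0 and 10 for the difference of responses (6.63% and 4.64%). At a lower threshold of 0.32 on the log2 scale they were, in the same order, 69 higher and 3 lower (21.4% and 26.0% of all genes), 11 and 7 (10.7%, and 2015 of 13561 genes), 13 and 4 (7.54% and 12.1%), 1 and 51 (21.9% and 24.6%), and 3 and 64 (24.8% and 27.0%). With structural subunits only, 0 genes were lower for stimulation in control cells and 0 higher for the difference of responses, since Ndufaf7 is then left out; a repeated quantile normalization also gave 0 for the latter, and the cause was not tested. No paired analysis was possible because each group has 1 array, and for the same reason no replicate could be left out. Cox6b2, Cox8c and Ndufa4l2 lie near the floor, which limits what their values show.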
